A study of Homo sapiens with 3 samples.

Results

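The NF-kB family was described through 10 genes, all of them found by symbol among the 19215 genes of the deposited table: the 5 subunit genes NFKB1, NFKB2, REL, RELA and RELB, the 3 genes of cytoplasmic inhibitors NFKBIA, NFKBIB and NFKBIE, and the 2 genes of nuclear IkB proteins NFKBIZ and BCL3. RNA sequencing measured them in the C28/I2 line, human chondrocytes made to divide without limit by a viral oncogene. The labels form 1 group of 3 spheroid samples, grown as cell aggregates and exposed to 0.5% DMSO, a drug solvent, for 48 h. The monolayer cultures that serve as the reference enter through the authors' deposited fold changes, and the sources used here do not give their treatment. The labels do not say whether the 3 spheroid samples came from separate cultures, so their spread, and p-values built on it, may reflect technical variation only.

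NF-kB proteins act as pairs of subunits that bind DNA. In resting cells IkB proteins hold them in the cytoplasm. A signal from a cytokine or pathogen receptor activates the IKK complex, which phosphorylates IkB and marks it for destruction, and the freed pairs enter the nucleus. Several genes of the family are themselves textbook targets of the pathway, above all NFKBIA, whose product shuts the response off again. In cartilage the pathway is known for driving matrix-degrading enzymes and inflammatory mediators in joint disease.

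In the authors' deposited table, 8 of the 10 genes were higher in spheroids than in monolayer, none was lower and 2 did not pass the threshold, which asks for a DESeq2 adjusted p below 0.05 and a log2 fold change of 1 or more in size. Of all 18467 tested genes, 11.5% were called higher and 9.34% lower by the same rule, 20.8% in either direction. With a minimum of 2 on the log2 scale, 2 of the 10 genes, NFKBIA and RELB, were higher, beside 5.05% of all tested genes higher, 3.06% lower and 8.11% in either direction. The authors' deposited table gave the 10 genes a median log2 fold change of 1.46, beside 0.04 over all tested genes. NFKBIA led in the authors' deposited table at 2.83 on the log2 scale, and RELB followed at 2.63. The 2 genes short of the threshold were REL, the only one with a negative value, and NFKBIB. In bulk libraries, a change in the share of cells that express a gene and a change in RNA per cell cannot be told apart.

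**Figure D1:**
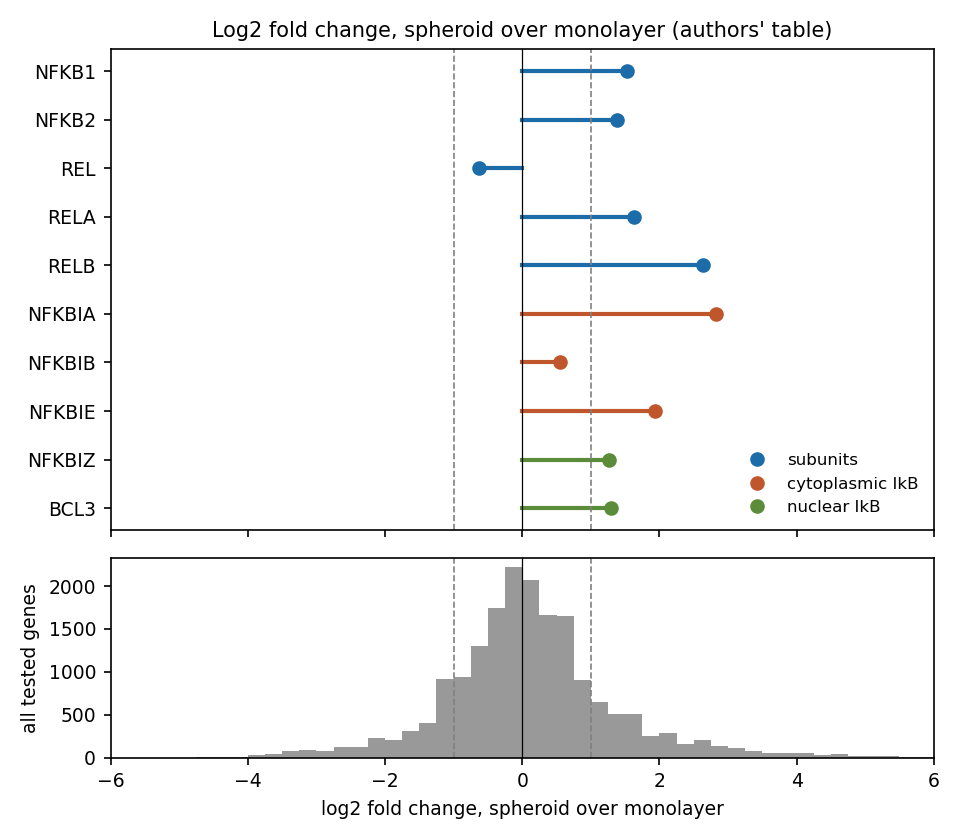
The upper panel gives the log2 fold change of each gene, spheroid over monolayer, from the authors' deposited table, coloured by role, with dashed lines at the minimum of 1 in each direction. The lower panel counts all tested genes by log2 fold change between -6 and 6; the 8 called genes lie between 1.27 and 2.83, while REL lies at -0.62 and NFKBIB at 0.56.

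Because members of the family are known targets of the pathway, the bases just before their transcription starts were searched for a kB motif, the type of site that NF-kB binds. Sequences were RefSeq promoters of GRCh38.p14, which had rows for 8 of the 10 genes; RELB and NFKBIE had none. The motif GGGANNNNCC, on either strand within 250 bases before any listed start, was found for 6 of the 8 genes and for 32.5% of the 14288 tested genes with a promoter row. The stricter GGGANNTTCC, a subset of the first, was found for the same 6 genes, NFKB1, NFKB2, REL, NFKBIA, NFKBIB and NFKBIZ, and for 1.84% of genes. Neither motif was found for RELA or BCL3. Several genes have more than 1 listed start: of the 14 promoters of the 8 genes, 11 had the first motif and 6 the stricter one. Of all 35116 promoters, 22.6% had the first motif and 1.4% the stricter one. The 3 stretches below are shown because they set the gene with the largest log2 fold change, NFKBIA, beside another called gene, NFKB1, and the 1 gene with a negative value, REL. Capitals mark bases that match GGGANNNNCC on either strand.
NFKBIA, chr14:35404791-35404860, minus strand: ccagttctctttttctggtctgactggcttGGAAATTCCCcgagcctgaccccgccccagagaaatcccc
NFKB1, chr4:102501280-102501349, plus strand: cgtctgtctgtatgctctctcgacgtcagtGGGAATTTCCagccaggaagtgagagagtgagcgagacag
REL, chr2:60881497-60881567, plus strand: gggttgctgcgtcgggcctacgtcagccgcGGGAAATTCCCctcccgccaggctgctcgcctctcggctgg
The match began 81 bases before the start of NFKBIA and 49 bases before the first listed start of NFKB1. The other listed start of NFKB1 had no match to the stricter motif. In REL 2 overlapping matches, 1 on each strand, began 47 and 46 bases before the start. Read on the strand where it begins with GGGA, the same GGGAATTTCC stood before NFKBIA, NFKB1, REL, NFKBIB and NFKBIZ. For NFKB1, NFKBIB and NFKBIZ it stood before only 1 of the listed starts. NFKB2 had GGGAATTCCC 107 bases before the middle one of its listed starts, where it matches on both strands, and GGGACTTTCC 21 bases before the last of its listed starts. A match to these letters was therefore present both before genes that were called higher and before REL and NFKBIB, which were not called. It describes letters, not binding, which was not measured.

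Of the subunit genes, 4 of 5 were higher in spheroids. RELA encodes the subunit that carries the main transactivation domain of the classical pathway. It was listed at 84.98, 93.1 and 80.8 FPKM, a level scaled to gene length and library size, in spheroid replicates 1, 2 and 3, a mean of 86.3 ± 6.23 FPKM (SD, n = 3). In the authors' deposited table it stood 1.63 higher on the log2 scale, 3.10 times the monolayer level (DESeq2 adjusted p = 7.54e-55). NFKB1 encodes the precursor of the subunit that usually pairs with RELA, and had 22.0, 25.6 and 19.3 FPKM in the spheroid libraries. The authors' deposited table gave 1.53 as its log2 fold change (DESeq2 adjusted p = 1.39e-32). RELA and NFKB1 were both highest in replicate 2 and lowest in replicate 3, and the NFKB1 level was 0.257 ± 0.018 of the RELA level in the 3 libraries (SD, n = 3).

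RELB and NFKB2 encode the partners of the alternative pathway, in which the NFKB2 precursor is trimmed to free an active pair. RELB had 38.8, 49.7 and 51.2 FPKM in the spheroid libraries, with replicate 1 apart from the other two. Among the subunits it had the highest value in the authors' deposited table, 2.63 on the log2 scale or 6.20 times the monolayer level (DESeq2 adjusted p = 2.52e-87). NFKB2 had 54.6, 68.2 and 75.4 FPKM, again with its lowest value in replicate 1. The authors' deposited table put its log2 fold change at 1.38 (DESeq2 adjusted p = 8.60e-33). The level of NFKB2 over that of RELB stayed between 1.37 and 1.47 in the 3 spheroid libraries, although both levels differed between them.

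REL encodes c-Rel, a subunit best known from lymphoid cells. Its spheroid values were 14.8, 15.0 and 14.9 FPKM, nearly equal in the 3 libraries. In the authors' deposited table it was at -0.62 on the log2 scale, 0.649 times the monolayer level; its DESeq2 adjusted p of 1.02e-11 was under 0.05, but the change was smaller than the minimum. By adjusted p alone, REL was lower and the other 9 genes higher, where 26.0% of all tested genes were higher and 24.5% lower, 50.4% in all. With a minimum fold change of 1.5, REL was lower and 8 genes higher, where 18.1% of all tested genes were higher and 16.6% lower, 34.7% in all. In the spheroids REL made up 6.33 ± 0.49% of the summed FPKM of the 5 subunit genes, against 36.7 ± 3.04% for RELA, 27.9 ± 2.99% for NFKB2, 19.7 ± 1.60% for RELB and 9.46 ± 1.27% for NFKB1 (SD, n = 3).

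Of the cytoplasmic inhibitor genes, NFKBIA and NFKBIE were higher and NFKBIB did not pass. NFKBIA encodes IkB-alpha, the rapidly resynthesised inhibitor that carries NF-kB out of the nucleus. It was listed at 264, 308 and 349 FPKM in spheroid replicates 1, 2 and 3, every value above those of the other 9 genes. The value of 2.83 in the authors' deposited table is 7.10 times the monolayer level (DESeq2 adjusted p = 6.11e-138), above 96.3% of tested genes. NFKBIE encodes IkB-epsilon, a slower inhibitor, and had 23.5, 25.01 and 25.8 FPKM. In the authors' deposited table it was at 1.94 on the log2 scale (DESeq2 adjusted p = 6.63e-44).

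NFKBIB encodes IkB-beta, an inhibitor less dependent on renewed synthesis after a stimulus, and had 26.8, 24.7 and 27.2 FPKM in the spheroids. It had 0.56 as its log2 fold change, per the authors' deposited table, 1.47 times the monolayer level, with a DESeq2 adjusted p of 3.61e-05 and a change below the minimum. NFKBIB and NFKBIE thus had overlapping spheroid levels and different fold changes, whose difference was not tested. NFKBIA provided 85.6 ± 1.48% of the summed FPKM of the 3 cytoplasmic inhibitor genes (SD, n = 3). That sum was 1.52 ± 0.13 times the summed FPKM of the subunit genes, with 1.46, 1.42 and 1.66 in the 3 libraries. NFKB1 and NFKB2, which encode precursors, were counted as subunits only. These are RNA levels, and the balance of the proteins was not measured.

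The nuclear IkB proteins bind NF-kB subunits on DNA and can raise as well as lower transcription. BCL3, first known from a leukaemia translocation, encodes a coactivator that pairs with subunits lacking a transactivation domain of their own. It had 41.7, 52.6 and 58.2 FPKM in the spheroid libraries, lowest in replicate 1. In the authors' deposited table it stood at 1.29 on the log2 scale (DESeq2 adjusted p = 6.50e-23). NFKBIZ encodes IkB-zeta, which is needed for a second wave of inflammatory genes such as IL6. It had 14.6, 13.9 and 13.4 FPKM, with little spread. The authors' deposited table listed it at 1.27 (DESeq2 adjusted p = 1.07e-20), the smallest of the 8 called genes. The start of NFKBIZ overlaps the end of the neighbouring gene NXPE3, listed at a mean of 2.85 FPKM; the sources used here do not say whether libraries kept the strand, so reads in the overlap cannot be assigned. The same holds for NFKB1, RELA, REL and BCL3, which overlap the noncoding genes NFKB1-AS1, RELA-DT, RNU4-51P and MIR8085, not analysed here.

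**Figure D2:**
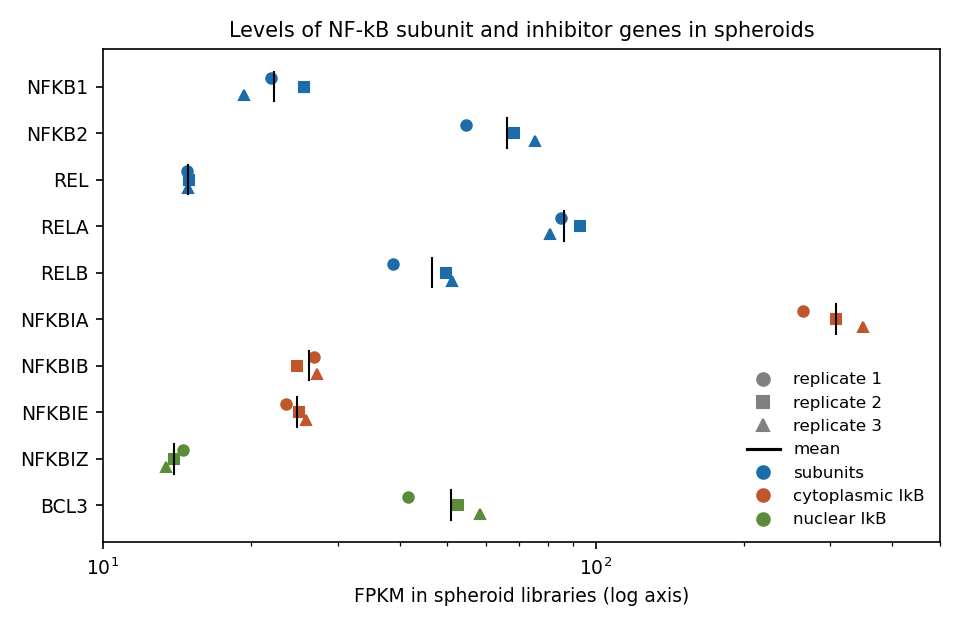
Each symbol is the FPKM of 1 spheroid library on a log axis, with circles, squares and triangles for replicates 1, 2 and 3, a line at the mean and colours for the role of the gene. NFKBIA stands alone at 264 to 349 FPKM, and REL and NFKBIZ are lowest, between 13.4 and 14.96 FPKM.

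Ordered by mean spheroid level per length, NFKBIA was followed by RELA, NFKB2, BCL3, RELB, NFKBIB, NFKBIE, NFKB1, REL and NFKBIZ. The ranges over the 3 libraries overlapped for 4 of the 9 pairs of neighbours: NFKB2 with BCL3, BCL3 with RELB, NFKBIB with NFKBIE, and NFKBIE with NFKB1. The first 2 of these pairs kept their order in each of the 3 libraries. NFKBIA lay above 98.5% of the genes with a level above 0, RELA above 94.4% and NFKBIZ above 71.3%. All 10 genes were above 0 in every library and had a mean of at least 1 FPKM, so a filter on low values would remove none.

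Part of the family had the same order over the spheroid libraries. NFKB2, RELB, NFKBIA, BCL3 and NFKBIE were lowest in replicate 1 and highest in replicate 3. Replicate 3 stood at 1.32 to 1.4 times replicate 1 for the first 4 of these and at 1.10 times for NFKBIE. Summed FPKM over all genes was also higher in replicate 3, at 623496 against 571705 in replicate 1. The ratios were not rescaled for it. The 4 genes reached a ratio of 1.2, a limit chosen after the values were seen, as did 16.3% of the 12410 genes that averaged 1 FPKM or more, whose median ratio was 1.00. Replicate 1 was the lowest library for 6 of the 10 genes, among them REL, whose values were nearly equal. Over all genes, the share lowest in replicate 1, or also highest in replicate 3, was not computed. The coefficient of variation was 13.9% for NFKBIA, 14.6% for RELB, 16.0% for NFKB2 and 16.6% for BCL3, where genes of like level had medians of 7.04% for the first and 6.42% for the other three. NFKB1, whose lowest value was in replicate 3, had 14.1%, beside 6.91% for genes of its level. RELA was close to the median of its level, at 7.21% beside 7.04%. NFKBIE, NFKBIB and NFKBIZ were below theirs, at 4.80%, 5.09% and 4.13% beside 6.91%, 6.91% and 7.31%. REL was lowest at 0.54%, beside 7.31% for genes of its level. In all, 6 of the 10 genes had a coefficient above the median of their level. Relative to the mean of the libraries, log2(FPKM + 1) had a median deviation of -0.13, 0.08 and 0.10 in replicates 1, 2 and 3 over the 16 textbook target genes at 1 FPKM or more, and 0.01, -0.01 and 0.01 over all 12410 genes at that level. It was -0.05, 0.04 and 0.05 over the 10 genes of the family and -0.14, 0.06 and 0.10 over the 8 called ones. Whether the libraries differ in culture or in handling was not tested.

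**Figure D3:**
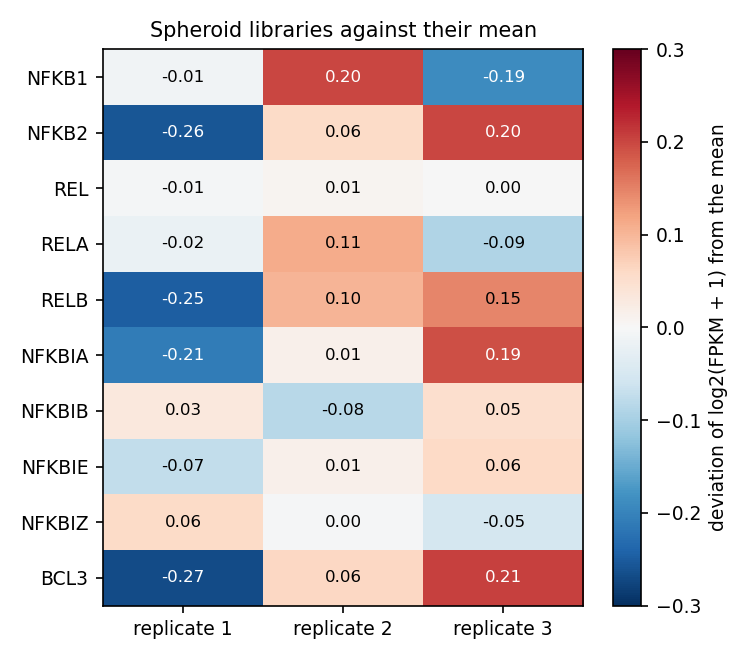
Each cell gives the deviation of log2(FPKM + 1) in 1 spheroid library from the mean of the 3 libraries, blue for lower and red for higher. NFKB2, RELB, NFKBIA and BCL3 range from -0.27 to -0.21 in replicate 1 and from 0.15 to 0.21 in replicate 3, while REL stays within 0.01 of its mean.

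The rest of the pathway was followed through 74 genes in 5 lists by role. Receptors and adaptors that feed the pathway were higher for 10 of 18 genes, 55.6% beside 11.5% of all tested genes. The other 8 did not pass. With a minimum of 2 on the log2 scale, 4 of the 18 were higher, where 5.05% of all tested genes were. The authors' deposited table gave the list a median log2 fold change of 1.2, beside 0.04 over all tested genes. TLR2, a receptor for bacterial lipoproteins, had 2.25, 3.02 and 2.87 FPKM in the spheroids and had 5.51 as its log2 fold change, per the authors' deposited table. IRAK2, a kinase-like adaptor of interleukin-1 and Toll-like receptors, stood at 3.31 and the tumour necrosis factor receptor gene TNFRSF1B at 2.74 in the authors' deposited table. LTBR, the lymphotoxin receptor that feeds the alternative pathway, was abundant at 188 ± 5.93 FPKM (SD, n = 3) and short of the minimum at 0.85 in the authors' deposited table. TNFRSF12A, the receptor for the cytokine TWEAK, was listed at 192 ± 35.2 FPKM (SD, n = 3) with -0.93 as its log2 fold change, per the authors' deposited table, also short of the minimum.

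Between receptors and NF-kB, the called shares of the kinases and ligases were near those of all genes. Of 17 genes of the IKK complex and the kinases and ubiquitin ligases above it, 2 were higher and 2 lower, 11.8% each way beside 11.5% and 9.34% of all tested genes, while 13 did not pass. The median of the authors' deposited fold changes was 0.12 on the log2 scale. MAP3K14, the kinase NIK that starts the alternative pathway, fell by 1.59 in the authors' deposited log2 fold changes (DESeq2 adjusted p = 2.23e-41), and had 5.77, 5.70 and 4.86 FPKM in the spheroids. IKBKG, the scaffold NEMO of the IKK complex, fell by 1.13 in the authors' deposited table. Its spheroid level was 28.8 ± 1.24 FPKM (SD, n = 3), and it has a near-identical partial copy in the genome with which it can share reads, so its value is uncertain. TAB2, an adaptor of the kinase TAK1, and MAP3K8, the kinase TPL2, were higher at 1.29 and 1.12 in the authors' deposited table. The catalytic IKK genes did not pass, with 0.12 for IKBKB and -0.36 for CHUK in the authors' deposited table; both were chosen after their values were seen. RBCK1 and SHARPIN, subunits of the linear ubiquitin ligase, stood at 0.44 and 0.05 there. None of the 8 genes of the machinery that marks IkB proteins for the proteasome passed the threshold. Of all tested genes, 11.5% were higher and 9.34% lower by that rule. By adjusted p alone in the DESeq2 comparison, 3 of the 8 were higher, where 26.0% of all tested genes were. The most abundant were NEDD8, a ubiquitin-like activator of the ligase, at 182 ± 14.2 FPKM and its conjugating enzyme gene UBE2M at 102 ± 14.4 FPKM (SD, n = 3), with -0.09 and -0.08 in the authors' deposited table.

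Other inhibitors of the pathway were higher for 6 of 11 genes, 54.5% beside 11.5% of all tested genes. None was lower, beside 9.34% of all tested genes. The list had a median in the authors' deposited table of 1.05 on the log2 scale. TNFAIP3 encodes A20, a ubiquitin-editing enzyme, and had 54.3, 60.1 and 50.4 FPKM in the spheroids, and its value in the authors' deposited table was 2.72 on the log2 scale (DESeq2 adjusted p = 4.91e-137). ZC3H12A, an RNase that degrades cytokine mRNAs, stood at 2.19 and TNIP3, a partner of A20 at a spheroid mean of 0.95 FPKM, at 3.79 in the authors' deposited table. COMMD1 and PDLIM2, which promote removal of nuclear RELA, were not called, at 0.39 and 0.41 in the authors' deposited table. NFKBID, the remaining nuclear IkB gene and chosen after its values were seen, had 3.44, 4.0 and 4.50 FPKM and had -0.78 as its log2 fold change, per the authors' deposited table, short of the minimum.

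Textbook target genes were higher for 17 of 20, 85% beside 11.5% of all tested genes. None was lower, beside 9.34% of all tested genes. Their median in the authors' deposited table was 3.22 on the log2 scale, above that of the subunits and inhibitors. CXCL10, a chemokine gene also induced by interferons, had 127, 150 and 153 FPKM in the spheroids and had 7.28 as its log2 fold change, per the authors' deposited table. The targets CCL20 and IL1B, a chemokine and a cytokine gene, stood at 6.27 and 5.81 there. The 3 targets that did not pass were CFLAR, an inhibitor of death receptor signalling at 10.8 ± 0.811 FPKM (SD, n = 3) and 0.19 in the authors' deposited table, and the neutrophil chemokine genes CXCL1 and CXCL2. CXCL1 was listed at 0.07, 0.14 and 0.14 FPKM, and CXCL2, chosen after its values were seen, at 0, 0 and 0.08 FPKM.

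**Figure D4:**
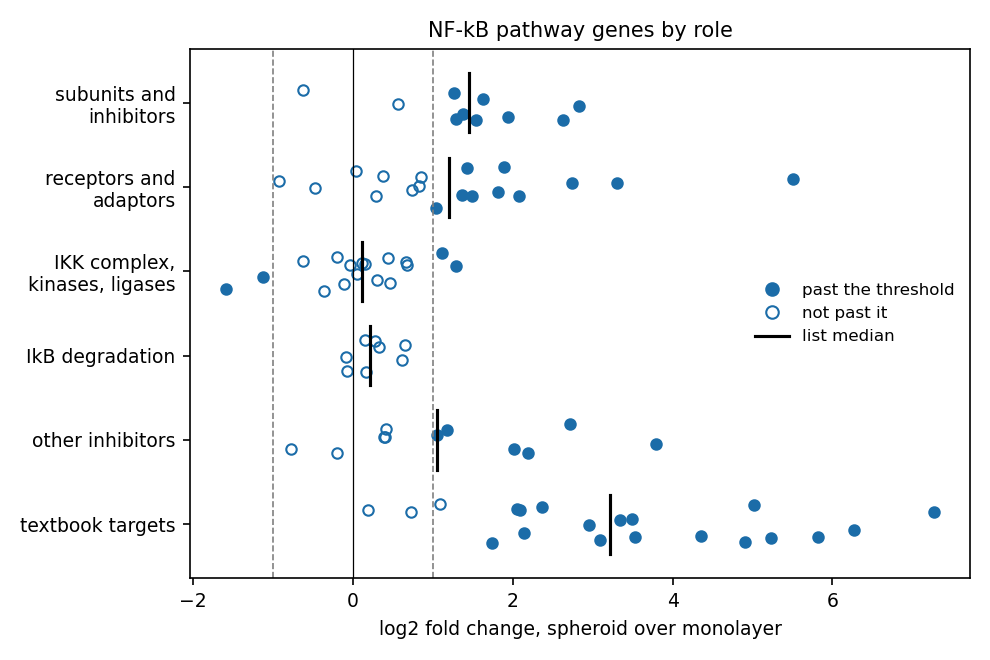
Each point is 1 gene's log2 fold change, spheroid over monolayer, from the authors' deposited table, filled where it passed the threshold, with a black line at the median of each list and dashed lines at -1 and 1; vertical scatter within a list carries no value. List medians run from 0.12 for the IKK complex, kinases and ligases to 3.22 for textbook targets, with 1.46 for the subunits and inhibitors.

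The FPKM values of the 3 libraries summed to 571705 to 623496, with 17207 to 17240 genes above 0; the read depth is unknown. Of 10 chondrocyte markers, 2 reached a mean of 1 FPKM: SOX9, the master regulator of cartilage, at 6.71 ± 0.0866 FPKM and COL11A2, a cartilage collagen gene, at 2.11 ± 0.506 FPKM (SD, n = 3). COL2A1, the main cartilage collagen gene, was at or below 0.03 FPKM, so the labelled cell type lacks this defining marker. Of the 10, 1 was called higher in the authors' deposited table, 10% beside 11.5% of all tested genes. It was COL9A1, at 4.79 on the log2 scale and a spheroid mean of 0.13 FPKM. Called lower were 2, 20% beside 9.34% of all tested genes: ACAN at -2.16 and HAPLN1 at -1.63. Their spheroid means were 0.73 and 0.07 FPKM. The other 7 did not pass, SOX9 among them at -0.62. NF-kB genes are active in immune cells, of which 9 markers summed to 9.85 to 12.7 FPKM in the spheroid libraries. Of these, 2 were called higher in the authors' deposited table, CD3E and ITGAM, 22.2% beside 11.5% of all tested genes. The spheroid mean of ITGAM was 0.35 FPKM. A mean of 1 FPKM was reached by 3 of the 9: CSF1R, a myeloid growth factor receptor, LYZ, encoding lysozyme, and CD3E. CSF1R had 5.98, 6.11 and 6.72 FPKM, the most of the 9, and was short of the minimum at 0.94 in the authors' deposited table, and LYZ averaged 1.37 ± 0.275 FPKM (SD, n = 3). The pan-leukocyte gene PTPRC was at 0, 0.01 and 0.06 FPKM, and MS4A1, another immune marker, was at 0 in 2 of the 3 libraries. The samples are labelled as the C28/I2 line, and whether any immune cell RNA entered the values of the family was not tested.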

How the data were processed

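Per the labels' protocols, Trizol RNA of 3 spheroid samples of C28/I2 cells was sequenced. Tools named in the submitters' processing notes are Bowtie2 2.2.5, RSEM 1.2.12, DESeq2 1.4.5 and, as genome build, GRCh38.p13, with no step given for any. Per the file headers, the authors deposited FPKM values, given to 2 decimals. Also per the file headers, they deposited the log2 fold change, p-value and adjusted p-value (q-value) of a DESeq2 comparison; recomputing the Benjamini-Hochberg adjustment gave the same values to within 1.3e-15. Positive fold changes were read as higher in spheroids, since 356 of 358 tested genes with no spheroid signal had a negative one. A fold change was absent for 748 genes. Another 3 FPKM columns, labelled monolayer, correspond to none of the listed samples and entered no result, and the comparison was not refitted. FPKM without counts leaves the depth unknown, and counting intervals were not computed.

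Levels are means with SD of FPKM as deposited; deviations use log2(FPKM + 1), with a pseudocount of 1. The spread was set beside the median of the genes in the same decile of level, among those averaging 1 FPKM or more. A marker of the immune list is not reported here. The 10 genes, the lists and the tests were chosen with earlier results of these data known. The rule for named genes took all 10 members and, from each pathway list, up to 3 called genes of largest fold change per direction and the 2 most abundant uncalled ones. Alternatives were other thresholds, centred fold changes, a minimum level, leaving out each replicate, other scalings, a pseudocount of 0.1 and other kB motifs. Scripts ran in Python 3.11.15 (pandas 2.3.3, NumPy 2.4.6, matplotlib 3.10.9, SciPy 1.17.1).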

Additional observations from a re-analysis of the deposited data

How the results depend on the processing

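The count of family genes called higher, 8, became 2 with a minimum log2 fold change of 2 (NFKBIA and RELB), a rule by which 5.05% of all tested genes were higher. The count of family genes called lower, 0, became 1 (REL) with no minimum, where 9 were higher, or with a minimum fold change of 1.5, where 8 were; of all tested genes, 24.5% and 16.6% were lower by these rules. Of 74 pathway genes, the 2 called lower became 0 with the minimum of 2 (3.06% of all tested genes), 6 with no minimum and 5 with a minimum fold change of 1.5. The median level of the 10 genes was 36.4 FPKM, and 61.4 when scaled to TPM. That scaling multiplies all genes of a library by the same factor, 1.60 to 1.75, and so changes the unit. Leaving out each replicate in turn gave 34.995 to 38.2 FPKM. An adjusted p under 0.01, centring on the median of all genes and a minimum mean of 1 FPKM left the family counts at 8 and 0. With the looser motif GGGNNNNNCC all 8 genes with a promoter row matched, as did 71.9% of genes. None of the 205 values recomputed under an alternative changed sign, but for most of them this could not happen. Counts and levels cannot be negative, and another threshold leaves a fold change as it is. The sign therefore says little about how stable the results are. No paired analysis was possible because the labels form 1 group. The authors' comparison could not be repeated without single replicates. Depth is unknown, so the smallest detectable difference is not given.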
